A study of Mus musculus with 6 samples.

Results

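Alveolar type 1 (AT1) cells of the mouse lung were examined in 4 single-cell RNA-sequencing libraries made at P21, the 21st day after birth. Members were selected on measured transcripts. A barcode was taken as an AT1 member when at least 3 of the 6 AT1 marker genes Rtkn2, Hopx, Ager, Pdpn, Clic5 and Akap5 had a UMI (a unique molecular identifier, which stands for 1 captured mRNA molecule). It was also allowed at most 1 UMI in total over Etv5, Slc34a2, Hc, Pecam1, Cldn5, Col1a2 and Ptprc, of which the first 3 mark type 2 cells and the others endothelial cells, fibroblasts and immune cells. By this rule 4821 of 70426 quality-filtered lung barcodes were members. There were 948 in the Bdnf control library, 1875 in Bdnf iPCKO, 840 in Hgf control and 1158 in Hgf iPCKO. Values given as a run of 4 below keep that order.

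Both mutants carried Pdgfrb(BAC)-CreERT2, a tamoxifen-activated Cre recombinase driven by regulatory DNA of the pericyte gene Pdgfrb, together with a Bdnf or an Hgf allele flanked by lox sites. The controls carried the same lox alleles without the Cre. All mice, controls included, were given 50 µg of tamoxifen on each day from P1 to P3, so the allele was to be removed in pericytes and other Pdgfrb-expressing mural cells and not in AT1 cells. Each library held the pooled lung cells of 2 mice after removal of CD45- and Ter119-positive blood cells, and each genotype had 1 library. The spread between animals is therefore unknown, no test between genotypes could be made, and every interval below is a 95% interval that covers counting error only. The study describes the controls of each pair as littermates of the mutants. Genotype cannot be told apart from day of preparation or library.

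AT1 cells are the very thin, wide cells that cover most of the gas-exchange surface. They lie on a basement membrane that they share with the capillary endothelium, and they are held together by tight junctions. They are also known as a source of signals to the capillaries and to the fibroblasts of the alveolar wall, among them the vascular growth factor VEGFA. Pericytes are the mural cells of capillaries and sit on the other side of the same wall.

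The members fell into 2 populations by the summed level of the 6 marker genes, expressed as CPM, a cell's UMIs of a gene scaled to a total of 1000000. Cells at or above 10000 CPM numbered 816, 1555, 727 and 895, which made 3993 of the 4821 members, and their median marker level was 22848, 24111, 32154 and 33885 CPM. The remaining 828 members (132, 320, 113 and 263) had a median of 1203, 1771, 1371 and 2200 CPM. Few cells lay near this limit, with 9, 30, 7 and 37 between 5000 and 10000 CPM and 15, 62, 9 and 15 between 10000 and 15000 CPM. The limit was chosen after the values were seen.

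The population of low marker level was made of deep cells that carried airway genes. Its median depth was 15298, 11049, 11144 and 9993 UMIs, against 7478, 3788, 3744 and 2580 UMIs above the limit. At least 3 of 6 club cell genes were detected in 96.2, 93.8, 88.5 and 87.8% of these cells, and at least 3 of 6 ciliated cell genes in 47.0, 50.6, 39.8 and 54.0%. They held 25.7, 38.7, 31.5 and 53.9% of all member UMIs, so sums over all members mix AT1 and airway transcripts in proportions that differed between libraries. The cells above the limit are called AT1-like members here, and results are given for them unless all members are named.

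**Figure D1:**
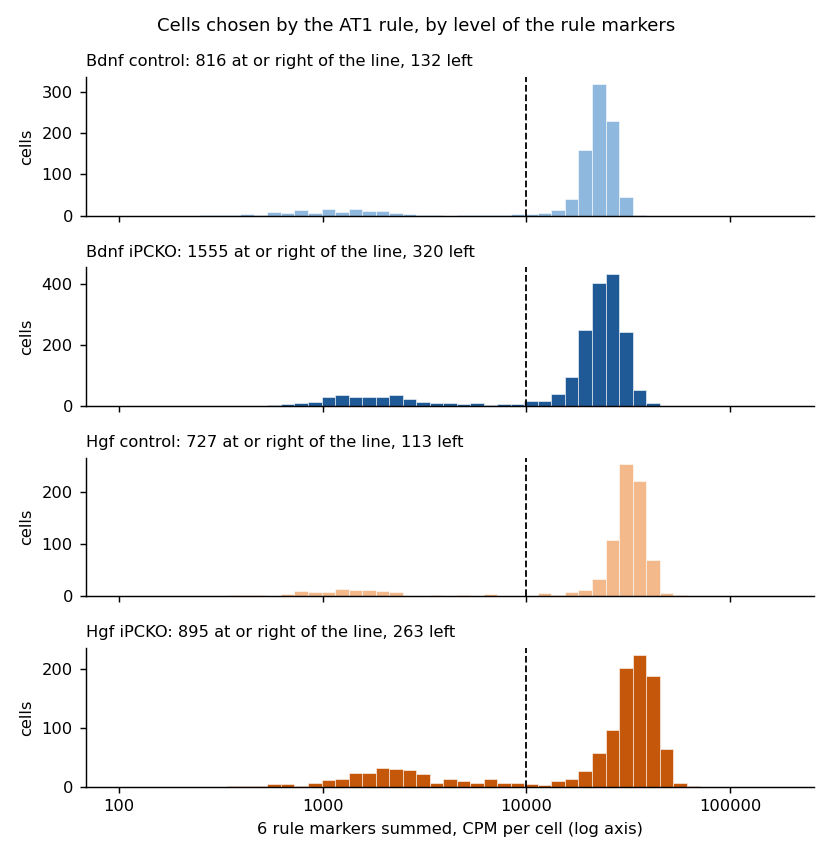
The 4 panels show the members of each lung library by the summed level of the 6 marker genes, in CPM on a log axis, with the number of cells on the vertical axis and the limit of 10000 CPM as a line. A large population lies above the limit, with medians from 22848 to 33885 CPM, and a small one lies below it, with medians from 1203 to 2200 CPM.

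Near the edges of the rule, members with exactly 3 markers numbered 91, 203, 105 and 238 and had a median marker level of 1123, 1542, 1308 and 2175 CPM. Cells just outside, with exactly 2 markers, numbered 102, 209, 139 and 462 and had 945, 1058, 1073 and 1625 CPM. Both therefore lay in the low population. On the other edge, members with any count of the excluded genes, which the rule held to 1 UMI, numbered 431, 802, 318 and 308. Their median was 21873, 22248, 30154 and 25858 CPM. Cells with more than 1 and up to 2 such UMIs numbered 269, 499, 160 and 184 and had 20269, 20839, 18107 and 8307 CPM. Without the limit on excluded genes, 1830, 3474, 1387 and 1826 cells with at least 3 markers were at or above 10000 CPM.

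Because those marker genes chose the cells, the label was set beside 30 other AT1 genes. In each of the 4 libraries 28 of them were higher in AT1-like members than in the highest of 4 other classes, which were AT2, endothelial, fibroblast and club cells gated from the same libraries. The exceptions were Mgll, a lipase, whose log2 difference from the highest other class ranged from -2.35 to -0.54, and Cav2, a caveola protein shared with endothelium, at -0.08 to 0.41. The comparison classes had been gated against UMIs of Rtkn2, Ager, Clic5 and Akap5. The comparison is therefore a description and not an independent test of the label. Of all genes outside the rule, 1938 were higher in AT1-like members than in each of these 4 classes in every library. Immune and ciliated cells were not part of this comparison. The name AT1-like is kept on these values. The members of low marker level are described by their airway genes and are given no other name.

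Among all genes outside the rule, 316 were at least 2-fold higher in AT1-like members than in any of the 4 classes in every library. These values describe the cells that the rule picked and carry no test. Col4a3 and Col4a4, chains of the collagen IV network of the alveolar basement membrane, exceeded the highest other class by log2 4.60 to 5.44 and 3.95 to 4.65. The laminin chain Lama3 exceeded it by 4.00 to 5.17. Secreted or surface signals stood beside this matrix group, with Flrt3 at 4.57 to 5.66, the IGF-binding protein Igfbp2 at 4.46 to 5.47, Ndnf at 3.45 to 4.54 and Wnt3a at 3.34 to 3.86. Csf1r, known as the receptor of the macrophage growth factor CSF1, was higher by 3.96 to 5.31 in cells from which Ptprc-rich barcodes were excluded. Immune cells were not among the classes compared, so its level in AT1-like members was not set beside theirs. The polarity gene Pard6b, the sodium channel subunit Scnn1g, the cell-cycle inhibitor Cdkn2b, the keratin Krt7 and Scel completed the described genes, with lowest differences between 3.05 and 3.92. The interferon-responsive gene Ifit3 was also in this set of 20, at 3.03 to 3.89.

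The targeted genes were read first in the mutants. Bdnf, which encodes brain-derived neurotrophic factor (GRCm39 chromosome 2, 109505045 to 109557475), was an AT1 transcript, at 218, 194, 334 and 280.4 CPM in AT1-like members. At least 1 Bdnf UMI was found in 55.0, 37.9, 56.3 and 41.6% of AT1-like cells, and in 26.3, 21.2, 36.0 and 28.9% after each cell was thinned to 1500 UMIs. In endothelial-gated cells, which should lack it, the share was 0.746, 0.803, 0.397 and 0.149%, at a median depth of 2885, 2414, 1460 and 1454 UMIs. The log2 ratio of mutant to control was -0.17 (-0.28 to -0.06) in the Bdnf pair and -0.25 (-0.40 to -0.11) in the Hgf pair, neither as large as 1.5-fold. The members of low marker level held 2.31, 4.93, 1.49 and 1.06 CPM. The deletion was directed at Pdgfrb-expressing cells and is not checked by the level in AT1 cells.

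Hgf, which encodes hepatocyte growth factor (chromosome 5, 16758041 to 16828178), was at background in AT1-like members, with 5, 4, 0 and 0 UMIs summed over all cells. Its level was 0.798, 0.622, 0 and 0 CPM, against 17.6, 11.3, 20.5 and 2.88 CPM in fibroblast-gated and 10.2, 11.3, 24.2 and 6.36 CPM in endothelial-gated cells. The receptor of this factor, Met, was found at 5.43, 9.33, 4.12 and 3.72 CPM in AT1-like members, with a log2 ratio of 0.78 (0.15 to 1.43) in the Bdnf pair and -0.15 (-1.57 to 1.22) in the Hgf pair. The BDNF receptors Ntrk2 and Ngfr were at or below 1 CPM in each library, while Sort1, a sorting receptor that also binds neurotrophin precursors, was at 416, 363, 439.9 and 336 CPM. Pdgfrb itself had 2, 77, 3 and 54 UMIs in AT1-like members, or 0.319, 12, 1.03 and 22.3 CPM, and was higher in both mutants by log2 5.23 (3.33 to 8.30) and 4.44 (2.81 to 6.76). Both mutants carry a transgene built from Pdgfrb, and near-empty droplets of the 4 libraries, which hold free RNA, had 13.2, 42.3, 14.6 and 92 CPM of it. With the free RNA subtracted, 0, 1, 1 and 41 UMIs of Pdgfrb were left. The part of the transgene in these counts was not tested. The female transcript Xist was at 0.160, 0.233, 0 and 0.413 CPM and the Y-linked Ddx3y at 108, 128, 152 and 141 CPM, so no library stood apart by sex.

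AT1 members made up 5.66% (95% Clopper-Pearson interval 5.32 to 6.02) of the quality-filtered cells in Bdnf control, 7.89% (7.55 to 8.24) in Bdnf iPCKO, 5.96% (5.57 to 6.36) in Hgf control and 7.32% (6.92 to 7.74) in Hgf iPCKO. For AT1-like members alone the shares were 4.87% (4.55 to 5.21), 6.54% (6.23 to 6.87), 5.16% (4.80 to 5.54) and 5.66% (5.30 to 6.03). Both mutants thus had the larger share, but in the Hgf pair the intervals for AT1-like members overlapped. The log2 ratio of the shares was 0.48 and 0.30 for members and 0.43 and 0.13 for AT1-like members. Members were found at unlike depths, since the median cell held 7191 UMIs in Bdnf control and 5085, 3988 and 2860 in the others. Shares are of cells that survived dissociation, blood cell depletion and these filters.

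Genes were compared within each pair on UMIs summed over the AT1-like members of a library. A gene was called when its CPM differed by at least 1.5-fold and the exact counting interval of the ratio left out 0 on the log2 scale. Genes with at least 50 UMIs over both libraries entered, without the 13 genes of the rule. In the Bdnf pair 11316 genes entered, of which 1225 (10.8%) were higher and 463 (4.09%) lower in the mutant. In the Hgf pair 9025 entered, with 944 (10.5%) higher and 1108 (12.3%) lower. The median gene moved by log2 0.04 in the Bdnf pair and -0.03 in the Hgf pair.

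Over all members the calls were 9.60% higher and 4.57% lower of 12944 genes in the Bdnf pair, and 11.9% higher and 15.7% lower of 11135 genes in the Hgf pair. The 2 controls, which differ in allele, depth and library but not in Cre, gave calls of the same order. Hgf control against Bdnf control had 9.78% of 10330 genes higher and 11.9% lower in AT1-like members. A call therefore says that 2 libraries differ beyond counting error, and shares of this size arose with no difference in Cre. A pair of log2 ratios below gives the Bdnf pair first and then the Hgf pair.

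The split between higher and lower calls moved when the free RNA of the suspension was subtracted. A list of 10 genes known from other cells was used, namely globins, secretoglobins, S100a8, S100a9 and the fibroblast collagens Col1a1 and Col3a1. The level of each gene in AT1-like members was divided by its level in near-empty droplets. The median ratio, 9.98, 27.9, 4.24 and 5.85%, was taken as the share of free RNA. The lowest ratio of the list was 1.49, 3.29, 0 and 2.47%, and the highest 195, 161, 18.6 and 68.6%. Where free RNA made up less than the median, the subtraction took out too much. Whether a call was kept after it thus depends on the share chosen. With this share subtracted, the part of the calls that were higher moved from 72.6 to 29.5% in the Bdnf pair and from 46.0 to 42.7% in the Hgf pair. Over all members the same median ratio was 45.7% in Bdnf control and 34.2% in Bdnf iPCKO. AT1-like members and members of low marker level had 9.98 and 21.5% in Bdnf control, and 27.9 and 4.32% in Bdnf iPCKO. A share of free RNA over all members would lie between those of its parts, so the values over all members do not measure it. With those values subtracted all the same, the part that was higher moved the other way in the Bdnf pair, from 67.8 to 71.8%. Over all members of the Hgf pair, scaling by the median of ratios moved it from 43.1 to 53.4%. A ratio above 100% means that AT1-like members held more of that gene than near-empty droplets did. Values after subtraction are given below beside genes described with a log2 ratio that they take under 1.5-fold. In the Hgf pair Pdgfrb, Mt2, Fmo2 and Nid1 kept fewer than 50 UMIs over both libraries, and Auts2 kept none, so its call there was not kept. In the Bdnf pair no UMI was left in either library for Mt1, Mt2, Scgb1a1, Cyp2f2, Cbr2, Auts2, Meg3, Spef2, Rp1, Fmo2, Nid1 and Met, and the called genes Cebpd and Cdc42ep3 kept 64 and 40 UMIs in the control and 0 and 6 in the mutant, so their higher calls were not kept.

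The Bdnf pair and the Hgf pair have separate controls. Of 8983 genes that entered in both, 296 (3.30%) were called higher in both mutants, which was 47.2% of the 627 higher in the Bdnf pair and 32.0% of the 926 higher in the Hgf pair. Another 208 (2.32%) were lower in both, or 55.5% of 375 and 18.9% of 1101. Opposite calls were made for 20 and 10 genes. Over all members, 4.30% of 11047 genes were higher in both and 2.81% lower in both.

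**Figure D2:**
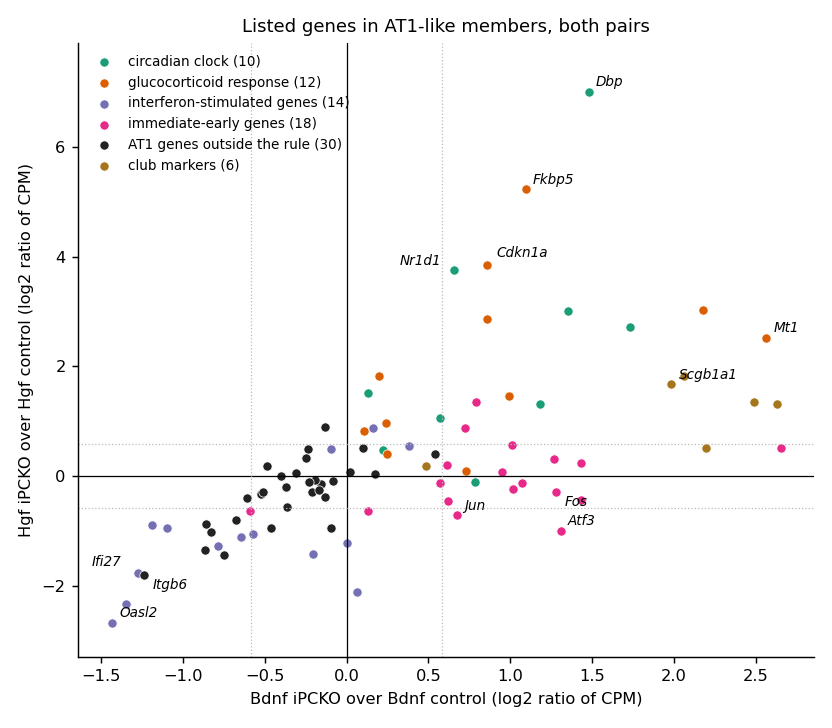
Each point is a gene of 6 lists measured in AT1-like members of both pairs, with the log2 ratio of CPM of mutant to control in the Bdnf pair on the horizontal axis and in the Hgf pair on the vertical axis, and dotted lines at 1.5-fold. Clock and glucocorticoid-responsive genes lie at the upper right (Fkbp5 at 1.09 and 5.23), interferon-stimulated and several AT1 genes at the lower left (Itgb6 at -1.24 and -1.81), and immediate-early genes such as Jun (0.67 and -0.72) are spread to the right about the horizontal line.

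Several AT1 genes were called lower in both mutants. Itgb6, the integrin subunit that binds latent TGF-beta (chromosome 2, 60428636 to 60553035), was at 331, 139.9, 442 and 126 CPM. Both mutant libraries lay below both controls, at log2 -1.24 (-1.35 to -1.13) in the Bdnf pair and -1.81 (-1.99 to -1.63) in the Hgf pair. Ndnf, a secreted protein with neurotrophic activity (chromosome 6, 65648574 to 65689310), was at 1389, 761, 1886 and 740.1 CPM, lower, at log2 -0.87 (-0.92 to -0.82) and -1.35 (-1.43 to -1.27). Igfbp2 (chromosome 1, 72863606 to 72891634) was at 486, 289, 782 and 288 CPM, lower, at log2 -0.75 (-0.83 to -0.67) and -1.44 (-1.57 to -1.32).

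For each of these genes the lower control stood above the higher mutant. How many of all genes had this order of the libraries was not counted, here or where it is given below. With the free RNA subtracted the ratios were -1.06 and -1.79 for Itgb6, -0.65 and -1.33 for Ndnf and -0.51 and -1.42 for Igfbp2, whose call in the Bdnf pair was thus not kept. Mal2, a membrane-traffic protein, was at 1824, 1026, 2119 and 1046 CPM with log2 ratios of -0.83 and -1.02. Sema3e, a guidance signal read by endothelial plexin receptors, was at 1391, 872, 1261 and 725 CPM with -0.67 and -0.80, and its Bdnf ratio was -0.49 after subtraction, under the 1.5-fold limit. The lipase Mgll was at 88, 48.5, 113 and 60.9 CPM with -0.86 and -0.88, although it is not an AT1-restricted gene here.

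Across the list of 30 AT1 genes outside the rule, 7 were called lower and 0 higher in the Bdnf pair (median log2 -0.28), and 8 lower and 1 higher in the Hgf pair (median -0.23). The share of all genes called lower was 4.09 and 12.3%. After subtraction of free RNA the medians were -0.07 and -0.21. Aqp5, the water channel of the apical surface, was at 720.2, 673, 1523 and 793 CPM and was lower in the Hgf pair, -0.94 (-1.02 to -0.86), but not in the Bdnf pair, -0.10 (-0.16 to -0.04). Tmem37 was the 1 gene called higher, at 482, 439.8, 612 and 1141 CPM and log2 0.90 (0.81 to 0.99) in the Hgf pair. Over all members 13 and 19 of the 30 were lower, with medians of -0.49 and -0.73, beside the larger airway share of the mutant members. Over all members 4.57 and 15.7% of all genes were called lower.

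**Figure D3:**
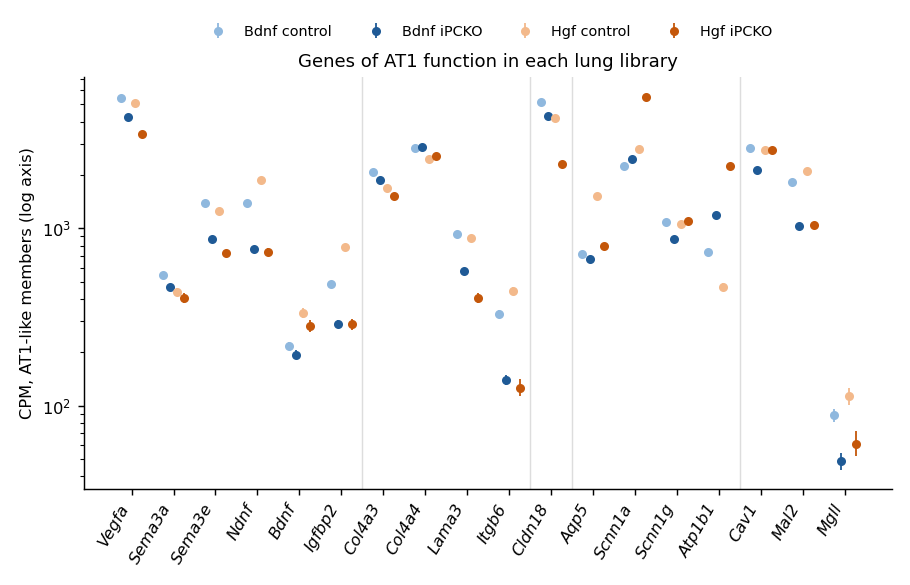
The plot gives the level of AT1 genes, in CPM on a log axis, in AT1-like members of the 4 lung libraries, with 95% exact Poisson intervals as bars. Itgb6, Ndnf and Igfbp2 lie lower in both mutants than in both controls, while Bdnf differs by less than 1.5-fold within each pair.

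Of 26 secreted signals measured in the Bdnf pair 4 were higher and 4 lower, and of 20 in the Hgf pair 2 were higher and 7 lower, with medians of -0.15 and -0.34. The shares of all genes were 10.8% higher and 4.09% lower in the Bdnf pair and 10.5 and 12.3% in the Hgf pair. Vegfa was at 5459, 4243, 5067 and 3401 CPM and was not called in either pair, with log2 -0.36 (-0.39 to -0.34) and -0.58 (-0.61 to -0.54). The growth factor Tgfb2 was at 371, 194, 407 and 228 CPM and was lower in both, -0.93 and -0.83, as was the semaphorin Sema3b at 234, 145, 264 and 113 CPM, -0.69 and -1.23. With free RNA subtracted Sema3b was at -0.47 in the Bdnf pair, so that call was not kept.

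Other ligands differed in the Hgf pair. Hbegf, an EGF-receptor ligand, was at 141, 98.3, 304 and 97.5 CPM and lower, at log2 -1.64 (-1.85 to -1.43), and Fgf1 was at 595, 437, 686 and 401 CPM and lower, at log2 -0.77 (-0.89 to -0.66). Wnt7a, a ligand of the WNT family, was at 46.5, 33.7, 62.2 and 32.2 CPM and lower, at log2 -0.95 (-1.35 to -0.56). In the other direction, the matricellular gene Ccn2 (chromosome 10, 24471333 to 24474900) was at 415, 428, 602 and 1646 CPM, so Hgf iPCKO alone stood above the other 3 libraries, by 1.45 (1.37 to 1.53) within its pair. Bmp4 was also higher there, 0.88, from 165, 173, 226 and 416 CPM.

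Of the receptors 4 of 25 were higher and 1 lower in the Bdnf pair and 7 of 22 higher and 1 lower in the Hgf pair (medians 0.17 and 0.11), against 10.8 and 10.5% of all genes called higher. The medians over the 22 and 21 that kept UMIs after subtraction of free RNA were -0.05 and 0.07. Tgfbr1, the type I TGF-beta receptor, was at 36.1, 65.6, 16.1 and 31.4 CPM and higher in both, 0.86 and 0.96, with its controls apart by -1.16. After subtraction it was at 0.55 in the Bdnf pair, under the 1.5-fold limit. Fzd2, a WNT receptor, was the 1 receptor lower in both pairs, at 301, 181, 279.5 and 179 CPM and -0.73 and -0.64, but at -0.53 in the Bdnf pair after subtraction, where the call was not kept. Notch1 was at 18.7, 25.5, 4.46 and 21.9 CPM and higher in the Hgf pair by 2.29 (1.40 to 3.29), with its controls apart by -2.07, and after subtraction it kept 0 UMIs in Hgf control and 24 in Hgf iPCKO.

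Basement membrane genes gave 2 higher and 1 lower of 18 in the Bdnf pair and 2 higher and 2 lower of 17 in the Hgf pair, beside 10.8 and 4.09% of all genes called higher and lower in the Bdnf pair and 10.5 and 12.3% in the Hgf pair. Lama3, a chain of the laminin that anchors epithelium, was at 931, 575, 882 and 404 CPM and lower, at log2 -0.70 and -1.13, with -0.52 in the Bdnf pair after subtraction of free RNA, where the call was not kept. The collagen chains were close between genotypes, with Col4a3 at 2087, 1872, 1684 and 1516 CPM and Col4a4 at 2844, 2888, 2448 and 2573 CPM. Nid1, a linker of laminin and collagen networks, was at 4.95, 13.7, 4.46 and 19.4 CPM and higher by 1.47 and 2.12, although no UMI was left in the Bdnf pair after subtraction of free RNA.

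Junction genes gave 1 higher and 1 lower of 17 in the Bdnf pair and 1 higher and 2 lower of 17 in the Hgf pair, against the same shares of all genes. Cldn18, the main AT1 claudin, was at 5156, 4283, 4204 and 2298 CPM and lower in the Hgf pair, -0.87 (-0.92 to -0.83). Cldn3, a claudin that AT2 and airway cells carry, was at 3.03, 21.6, 2.75 and 31.4 CPM and higher by 2.83 and 3.51, or 0.85 and 1.19 over all members, while members of low marker level held 238, 263, 215 and 267 CPM of it. Among 20 genes of caveolae and the cell cortex, 1 was higher in the Bdnf pair and 2 in the Hgf pair, with none lower, against 10.8 and 10.5% of all genes called higher and 4.09 and 12.3% lower. Cav1 was at 2824, 2134, 2772 and 2768 CPM.

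Of the genes for ion and water transport 3 of 15 were higher in the Bdnf pair, and 5 of 14 were higher and 2 lower in the Hgf pair, beside 10.8 and 10.5% of all genes called higher and 12.3% called lower in the Hgf pair. Atp1b1, the beta subunit of the sodium pump, was at 736, 1192, 465 and 2241 CPM, higher by 0.70 (0.64 to 0.75) and 2.27 (2.18 to 2.35). Its controls differed by -0.66. The sodium channel subunit Scnn1a was at 2263, 2459.5, 2788 and 5477 CPM and higher in the Hgf pair, 0.97 (0.93 to 1.01), whereas Scnn1g was at 1081, 871, 1060.5 and 1106 CPM and was not called in either. Aqp4 was lower in the Hgf pair, -1.71, but the Hgf control stood above the Bdnf control by 3.04, so its 4 levels of 5.11, 4.35, 41.9 and 12.8 CPM do not follow genotype.

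Among transcription factors 5 of 22 were higher in the Bdnf pair with 0 lower, and 4 of 21 were higher with 1 lower in the Hgf pair, against 10.8 and 10.5% of all genes called higher. Id1 and Id2, inhibitors of helix-loop-helix factors that respond to BMP and TGF-beta signals, were higher in both, at 0.88 and 1.12 for Id1 and 0.81 and 2.26 for Id2. Id1 was, with free RNA subtracted, at 0.47 in the Bdnf pair, under the 1.5-fold limit, and Id2 at 0.64. Cebpd, a factor of the stress response, was at 26.7, 47.3, 35.7 and 62.8 CPM and higher by 0.83 and 0.81. Sox4 was called lower in the Hgf pair, -1.57 (-1.86 to -1.29), and not in the Bdnf pair, -0.14 (-0.26 to -0.03).

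The YAP and TAZ pathway, which responds to stretch, gave 2 of 18 higher and 2 lower in the Bdnf pair and 3 higher and 2 lower in the Hgf pair, beside 10.8 and 4.09% of all genes called higher and lower in the Bdnf pair and 10.5 and 12.3% in the Hgf pair. Its target Ankrd1 was at 35.5, 8.24, 60.8 and 28.5 CPM and lower in both, -2.11 (-2.57 to -1.67) and -1.09 (-1.52 to -0.68), whereas Ccn2 was described above and Cdc42ep3 was higher in both, 0.65 and 1.84. Of the genes of the transitional state between AT2 and AT1, 2 of 14 were higher and 2 lower in the Bdnf pair and 1 of 12 higher and 3 lower in the Hgf pair, against those same shares. Lgals3 of this list was at 209, 104, 433 and 332 CPM, with -1.01 and -0.38. Cdkn1a, a cell-cycle inhibitor, was at 46.1, 83.6, 13.7 and 199 CPM, higher by 0.86 (0.65 to 1.07) and 3.85 (3.39 to 4.36), and its controls differed by -1.75. After subtraction it was at 0.56, under the 1.5-fold limit, and 4.77.

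Most measured genes of the circadian clock were called higher in both mutants, and the gene for BMAL1 was lower. Clock output genes are switched on and off each day by the CLOCK and BMAL1 factors, and in lung they also follow glucocorticoid levels. Of 13 measured in the Bdnf pair 8 were higher and 0 lower, with a median of 0.79, and of 10 in the Hgf pair 8 were higher and 0 lower, with a median of 1.48. These counts leave out the listed gene Bmal1, which the files hold under its older name Arntl and which was called lower in both pairs. The background called higher was 10.8 and 10.5%. After subtraction of free RNA, 11 of the 13 kept UMIs in both libraries of the Bdnf pair, with a median of 0.88, and all 10 did in the Hgf pair, with 1.49.

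Nr1d1, a repressor in the clock loop (chromosome 11, 98658752 to 98666188), was at 40.9, 64.4, 27.1 and 364 CPM, higher by 0.65 (0.43 to 0.89) and 3.75 (3.41 to 4.10). Dbp, a clock output factor (chromosome 7, 45354512 to 45359627), was at 2.40, 6.68, 0.687 and 88.4 CPM and rested on 15, 43, 2 and 214 UMIs, with a log2 ratio of 1.48 (0.60 to 2.44) and 7.01 (5.14 to 10.06). In the Bdnf pair it kept 13 and 21 UMIs after subtraction of free RNA, fewer than the 50 a gene needed to be compared, so that call was not kept. The Hgf iPCKO library stood far above the other 3 for both genes. Per1 was at 24.1, 48, 64.2 and 176 CPM, 0.99 and 1.45, Per2 differed by 1.18 and 1.31, Per3 by 1.35 and 3.01, and Nr1d2 by 1.73 and 2.72. Arntl peaks opposite to these genes in the daily cycle. It was at 54.5, 30.6, 39.8 and 5.37 CPM and lower in both, -0.83 (-1.09 to -0.57) and -2.89 (-3.84 to -2.06).

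The same list moved in the other cells of each suspension. Its median ratio was 0.55 in AT2-gated, 0.87 in endothelial-gated (over 9 genes) and 0.54 in the remaining cells of the Bdnf pair, and 2.47, 2.53 and 2.19 in the Hgf pair. The difference was thus shared by these cells, and the hour at which each lung was taken was not given in the sources used here. The controls differed too, with 1 of 11 higher and 5 lower in Hgf control than in Bdnf control and a median of -0.45, against 9.78% of all genes called higher and 11.9% lower in that comparison.

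Glucocorticoid-responsive genes showed the same pattern, and Per1 is counted in both lists. Of 12 measured 7 were higher in the Bdnf pair and 9 in the Hgf pair, with 0 lower and medians of 0.79 and 1.64, or 0.49 and 1.66 over the 10 and 12 genes that kept UMIs after subtraction of free RNA. Of all genes 10.8 and 10.5% were called higher. Between the controls 2 of 11 were higher and 5 lower in Hgf control, with a median of -0.53, against 9.78 and 11.9% of all genes. The medians were 0.77 and 1.07 in AT2-gated cells and 0.30 and 1.02 in endothelial-gated cells. Fkbp5, a chaperone of the glucocorticoid receptor (chromosome 17, 28618058 to 28737521), was at 50.6, 108, 4.46 and 168 CPM, higher by 1.09 (0.90 to 1.29) and 5.23 (4.44 to 6.15). Zbtb16 (chromosome 9, 48563141 to 48748664) was at 142, 258, 20.3 and 147 CPM, higher by 0.86 (0.74 to 0.98) and 2.86 (2.45 to 3.28). Zbtb16 was, with free RNA subtracted, at 0.58 in the Bdnf pair, under the 1.5-fold limit, and at 4.09 in the Hgf pair.

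In both genes the Hgf control was the low library, since it stood below the Bdnf control at log2 -3.50 for Fkbp5 and -2.81 for Zbtb16. The ratios in the Hgf pair are thus taken against the lowest of the 4 libraries. The metallothioneins Mt1 and Mt2, which bind metal ions, were higher in both pairs. Mt1 was at 6.55, 38.7, 8.59 and 49.1 CPM, 2.56 (2.08 to 3.08) and 2.52 (1.89 to 3.20), while members of low marker level held 625, 1114, 766 and 2779.6 CPM. Mt2 differed by 2.18 and 3.02. After subtraction of free RNA no UMI of either gene was left in the Bdnf pair, and Mt1 was at 2.53 in the Hgf pair. Nr3c1, the receptor itself, was at 263, 207, 229 and 206 CPM and was not called in either pair.

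Interferon-stimulated genes went the other way. These are the antiviral genes that interferon signalling switches on. Of 14 measured in the Bdnf pair 7 were lower and 0 higher, with a median of -0.61, and of 15 in the Hgf pair 12 were lower and 1 higher, with a median of -1.22. Over the 13 and 15 genes that kept UMIs after subtraction of free RNA the medians were -0.69 and -1.32. The share of all genes called lower was 4.09 and 12.3%. Between the controls 7 of 15 were higher and 1 lower in Hgf control, with a median of 0.48, against 9.78 and 11.9% of all genes. Ifit1 was at 131, 57.2, 90.3 and 48.7 CPM, with -1.19 (-1.37 to -1.01) and -0.89 (-1.22 to -0.57). Ifi27 (chromosome 12, 103392254 to 103407799) was at 138, 57.1, 259 and 75.6 CPM, with -1.27 (-1.45 to -1.10) and -1.77 (-2.02 to -1.54), and Oasl2 (chromosome 5, 115034997 to 115050295) was at 20.6, 7.62, 36.9 and 5.78 CPM, with -1.44 (-1.94 to -0.95) and -2.68 (-3.60 to -1.87).

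For these 3 genes both mutants lay below both controls. Rtp4, Xaf1, Irf9 and Psmb8 were also lower in both pairs, with log2 ratios from -1.35 to -0.65 in the Bdnf pair and from -2.35 to -0.95 in the Hgf pair. Ifit3, which was among the genes leading in AT1-like members, was the exception, at 205, 229, 205 and 376 CPM and higher in the Hgf pair by 0.88 (0.72 to 1.03). The genes of the list that were measured in other cells were lower there as well. Their medians were -0.56 in AT2-gated and -0.73 in endothelial-gated cells of the Bdnf pair and -0.93 and -1.26 in those of the Hgf pair. These medians rest on 6 genes in AT2-gated cells of each pair, and on 10 and 13 genes in endothelial-gated cells. Of the antigen-presentation genes 1 of 11 and 4 of 9 were lower, against 4.09 and 12.3% of all genes. The proteasome subunit Psmb8 is on both lists, so their counts are not independent.

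**Figure D4:**
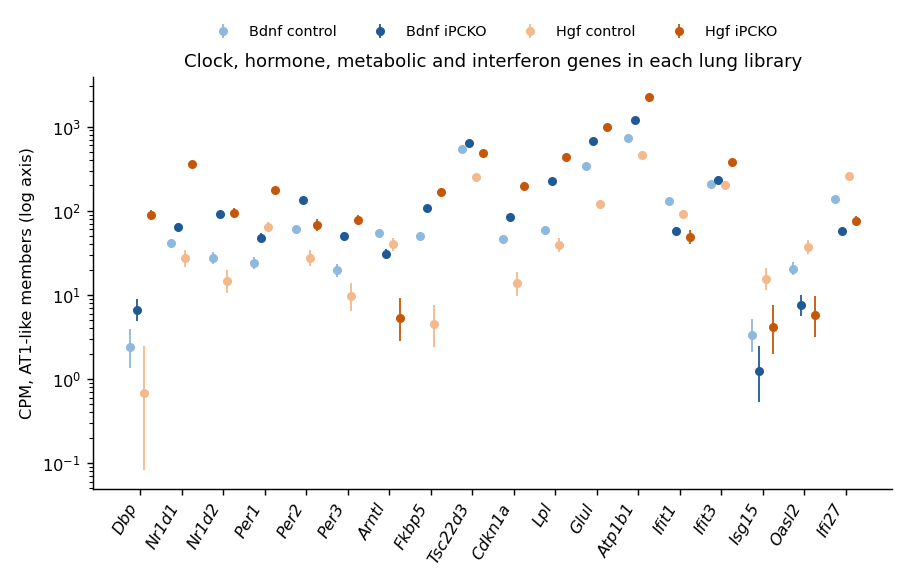
The plot gives the level of clock, glucocorticoid-responsive, metabolic and interferon-stimulated genes, in CPM on a log axis, in AT1-like members of the 4 libraries, with 95% exact Poisson intervals as bars. Genes such as Nr1d1, Fkbp5 and Lpl lie higher in each mutant than in its control, Arntl, Ifi27 and Oasl2 lie lower, and Ifit3 does not follow the other interferon genes.

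Promoter windows of these genes were read because members of each list moved together. The windows are the 250 bases before the RefSeq start of a gene, from a RefSeq table on GRCm38.p6, and each printed window was matched exactly to 1 place in GRCm39. Both strands were searched for 3 motifs, and no printed window held more than one kind of them. The interferon-stimulated response element, searched as a pair of GAAA sites spaced by any 2 bases, was found in 8 of the 15 interferon-stimulated genes that had a window (53.3%) and in 3.46% of all 27025 genes. CACGTG, the E-box read by CLOCK and BMAL1, was found in 5 of 14 clock genes (35.7%) and in 6.86% of all. The glucocorticoid response element, searched as GNACA and TGTNC spaced by any 3 bases, was found in 3 of 14 glucocorticoid-responsive genes (21.4%) and in 0.44% of all. A match describes the letters of the window and not binding.

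One window is shown for each list, from a gene called in the same direction in both pairs, 5′ to 3′ on the gene's strand with the motif in capitals. In Ifit1 (GRCm39 chr19:34618039-34618288, plus strand) the 2 elements start 104 and 85 bases before the gene start. In Per1 (chr11:68989525-68989774, plus strand) the E-box starts 166 bases before it, and in Mt1 (chr8:94905467-94905716, plus strand) the element starts 94 bases before it.
Ifit1: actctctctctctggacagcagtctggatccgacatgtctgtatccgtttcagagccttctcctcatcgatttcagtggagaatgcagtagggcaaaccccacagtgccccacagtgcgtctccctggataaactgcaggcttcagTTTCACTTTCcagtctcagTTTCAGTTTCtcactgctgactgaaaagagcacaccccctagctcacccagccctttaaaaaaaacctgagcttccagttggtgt
Per1: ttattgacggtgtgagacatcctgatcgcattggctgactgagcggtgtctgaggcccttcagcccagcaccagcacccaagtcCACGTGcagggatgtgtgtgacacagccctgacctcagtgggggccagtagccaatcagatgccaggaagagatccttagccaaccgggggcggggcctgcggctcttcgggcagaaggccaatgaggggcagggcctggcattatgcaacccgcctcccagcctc
Mt1: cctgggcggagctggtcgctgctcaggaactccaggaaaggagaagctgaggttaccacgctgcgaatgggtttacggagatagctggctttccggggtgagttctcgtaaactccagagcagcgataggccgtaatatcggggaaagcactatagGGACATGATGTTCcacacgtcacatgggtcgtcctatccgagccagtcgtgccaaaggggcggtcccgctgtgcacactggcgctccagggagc
In AT1-like members the gene with the first window was lower in both mutants (-1.19 and -0.89 for Ifit1), and those with the others were higher (0.99 and 1.45 for Per1, 2.56 and 2.52 for Mt1). No UMI of Mt1 was left in the Bdnf pair after subtraction of free RNA. Ifit3, whose window also held the interferon element, was called higher in the Hgf pair. The interferon element was found in Ifit1, Ifit3, Isg15, Stat2, Bst2, Rsad2, Gbp2 and Gbp3. Ifi27, Oasl2, Rtp4, Xaf1, Irf9 and Psmb8, described above as lower in both pairs, were not among them. Dbp, Nr1d1, Nr1d2 and Per3 were not among the clock genes with an E-box match. The glucocorticoid element was found in Sgk1, Mt1 and Map3k6, and Fkbp5 and Zbtb16 were not among the matches. A link between motif and direction was not tested.

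Immediate-early genes, which are switched on within minutes by stress or growth signals and by tissue dissociation, differed between the pairs. In the Bdnf pair 15 of 18 were higher and 1 lower, with a median of 0.98, while in the Hgf pair 2 were higher and 4 lower, with a median of -0.14. Of all genes 10.8 and 10.5% were called higher and 4.09 and 12.3% lower. Jun (chromosome 4, 94937271 to 94940459) was at 364, 579, 515 and 313 CPM, higher by 0.67 (0.60 to 0.75) in the Bdnf pair and lower in the Hgf pair, -0.72 (-0.85 to -0.59). Atf3 (chromosome 1, 190902493 to 190950241) was at 9.42, 23.3, 24.7 and 12.4 CPM, with 1.31 (0.86 to 1.77) and -0.997 (-1.66 to -0.36).

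After subtraction of free RNA, 12 of the 18 kept UMIs in both libraries of the Bdnf pair, with a median of 0.10, and 17 did in the Hgf pair, with -0.47. Jun was then at 0.10, and Atf3 kept 1 UMI in the control and 0 in the mutant, so the higher calls of both genes in the Bdnf pair were not kept. The list also differed between the controls, with 9 of 18 higher and 1 lower in Hgf control and a median of 0.58, against 9.78 and 11.9% of all genes. In AT2-gated, endothelial-gated and the remaining cells its median was 0.42, 0.47 and 0.50 in the Bdnf pair and -0.46, 0.26 and 0.28 in the Hgf pair. The part of dissociation in it was not tested.

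Of the heat shock chaperones 3 of 13 were called lower in the Bdnf pair and 7 of 12 in the Hgf pair, with none higher and medians of -0.21 and -0.86, against 4.09 and 12.3% of all genes called lower. Over the 12 genes that kept UMIs after subtraction of free RNA the medians were -0.50 and -0.87. Hspb1, a small heat shock protein that binds the cytoskeleton (chromosome 5, 135916760 to 135918417), was at 356, 129, 332 and 126 CPM. Both mutants had less than both controls, at log2 -1.47 (-1.58 to -1.35) and -1.40 (-1.59 to -1.21), and at -1.60 and -1.43 after subtraction of free RNA. Hsp90aa1 and Hsp90ab1 were also lower in both pairs, but Hsp90aa1 was at -0.57 in the Bdnf pair after subtraction, under the 1.5-fold limit. The controls again differed, with 8 of 13 lower in Hgf control and a median of -0.61, against 11.9% of all genes called lower.

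Energy genes were level. Of 20 oxidative phosphorylation genes none was called in either pair. Of the cell cycle genes 7 and 4 were measured, with 0 and 1 lower, against 4.09 and 12.3% of all genes. Sterol and fatty acid synthesis gave 2 of 18 higher in the Bdnf pair and 2 of 17 higher and 3 lower in the Hgf pair (10.8 and 10.5% of all genes were called higher, 12.3% lower in the Hgf pair). Between the controls 11 of 18 were higher in Hgf control than in Bdnf control, against 9.78% of all genes.

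Single metabolic genes did differ in both pairs. Lpl, the lipase that frees fatty acids from lipoproteins (chromosome 8, 69284603 to 69360100), was at 59.1, 225, 39.5 and 432 CPM, higher by 1.93 (1.76 to 2.10) and 3.45 (3.17 to 3.74), and by 2.15 and 3.48 after subtraction of free RNA. Acot1, a thioesterase of fatty acid metabolism, was at 18.7, 68.6, 9.10 and 81.4 CPM, 1.88 and 3.19. Glul, which makes glutamine, was at 344, 675, 120.2 and 998 CPM, 0.97 and 3.05.

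Ranked by the interval bound nearest 0, the 12 genes named higher in the Bdnf pair were Pdgfrb, Cxcl17, Cyp2a5, Prom1, Cyp2f2, Spef2, Meg3, Maff, Rp1, Cldn3, AU040972 and Mt1. Once free RNA was subtracted, Cxcl17, Cyp2a5, Prom1, Cldn3 and AU040972 kept 0 UMIs in the control and 13, 39, 22, 30 and 8 in the mutant. Members of low marker level held more of Cxcl17 (323, 344, 549.9 and 623 CPM) and Cyp2f2 (13921, 11205, 14681 and 10794 CPM) than AT1-like members did (0.319, 10, 3.43 and 5.78 and 26.8, 166, 32.6 and 81.4 CPM). Over all members the Bdnf ratio was 0.74 for Cxcl17, against 4.96 in AT1-like members, and Cyp2f2, Rp1 and AU040972 were at 0.30, 0.40 and 0.31, where they were not called. Among the 12 lower were Myl7, Ankrd1, Tnnt2, Glipr2, H2bc4, Hspb1, Bace2, Popdc2, H3c15, Itgb6 and Ikzf4. Myl7 and Tnnt2 are heart muscle genes, and Myl7 had 54, 1, 0 and 0 UMIs, so it was an attribute of the Bdnf control library alone.

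In the Hgf pair the 12 genes higher included Dbp, Msln, Fkbp5, Nr1d1, Cdkn1a, Lpl, Pak6, Fscn1, Tecrl, Glul and Pdgfrb. Msln, a surface protein best known from mesothelium, was at 8.62, 29.5, 4.46 and 190.4 CPM, 1.78 and 5.41. The 12 lower included Ddc, Npdc1, Tppp3, Map2, Arntl, Col12a1, Synm, Slc4a5, Lbh, Oasl2 and Tnn. Tppp3, which binds microtubules, was at 714, 429.7, 1073 and 210.2 CPM, with -0.73 and -2.35 (-0.57 in the Bdnf pair after subtraction, under the 1.5-fold limit), and the matrix protein Tnn was at 4.68, 2.85, 979 and 257 CPM, so it was high in both libraries with the Hgf allele and was lower in the mutant of that pair.

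The genes named for calls in both pairs were Pdgfrb, Cldn3, Mt1, Lpl, Cbr2, Mt2, Ddit4, Scgb1a1, Acot1, Nr1d2, Fmo2 and Auts2 on the higher side. Ddit4, an mTOR inhibitor that glucocorticoids and hypoxia induce, was at 7.67, 32, 9.27 and 57 CPM, 2.06 and 2.62, and Fmo2, a lung monooxygenase, was at 17.2, 58.8, 9.27 and 54.5 CPM, 1.77 and 2.56. On the lower side they included Hspb1, Itgb6, Ifi27, Zfp462, Npw, Tm4sf1, Cttnbp2, Agpat4, Pkia, Oasl2 and Ikzf4. Agpat4, an enzyme of phospholipid synthesis, was at 75.9, 32.5, 203 and 59.9 CPM, -1.22 and -1.76, with the controls apart by 1.42. Tm4sf1, a surface protein of the tetraspanin-like family, was at 238, 105, 316 and 94.2 CPM and lower, at log2 -1.18 and -1.74 in AT1-like members, but over all members its ratios were -0.35 and 0.03.

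Over all members, several of the genes that differed most between genotypes came from the members of low marker level. In those cells Scgb3a1, a secretoglobin of the upper airway, was at 2862, 2231, 4539.7 and 102 CPM, Bpifb1 at 332, 311, 1031 and 1.06 CPM and the mucin Muc5b at 127, 133, 105 and 3.53 CPM. The antimicrobial lectin Reg3g was at 983, 943, 886 and 0 CPM, with no UMI in Hgf iPCKO. The Hgf iPCKO library thus stood below the other 3 for these secretory genes of the larger airways. In AT1-like members each of the 4 genes was at or below 16.2 CPM in every library.

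**Figure D5:**
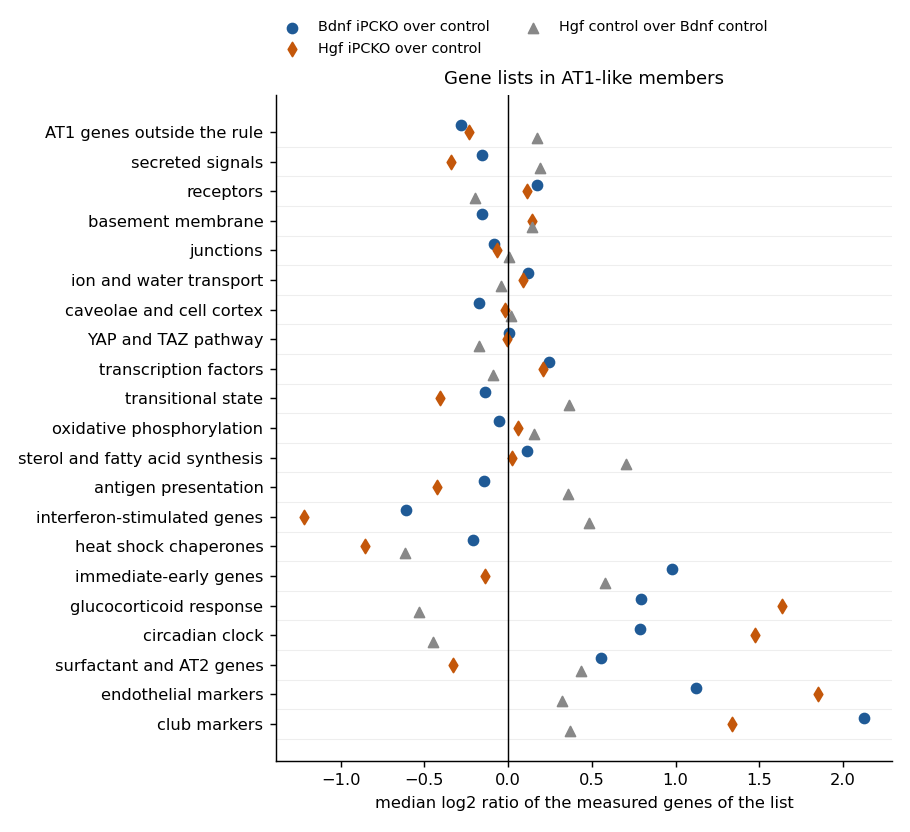
The plot gives the median log2 ratio of mutant to control in AT1-like members for each gene list, with a point for the Bdnf pair, the Hgf pair and Hgf control over Bdnf control. Clock (0.79 and 1.48) and glucocorticoid-responsive genes (0.79 and 1.64) lie to the right in both pairs, interferon-stimulated genes (-0.61 and -1.22) lie to the left, and the controls lie on the opposite side for these 3 lists.

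In AT1-like members the summed markers of endothelial, club, ciliated and mural cells were higher in each mutant than in its control. Those of immune and erythroid cells moved in opposite directions in the Bdnf and Hgf pairs. Of the immune list only 1 gene was measured in each pair, at 0.56 and -1.46. That list holds Lyz2, which is also counted among the surfactant and AT2 genes. The 5 genes used to gate immune cells were higher in both mutants, at or below 2.48 CPM in every library. The limit of 1 UMI over the excluded genes was set per cell at any depth, and AT1-like members of the mutants were shallower. The part of this limit was not tested. The summed level of 10 endothelial markers was 134, 304, 164 and 458 CPM, with 8 of 9 measured genes called higher in each pair and medians of 1.12 and 1.85, against 10.8 and 10.5% of all genes called higher. That of 6 club markers was 696, 2482, 1003 and 2922 CPM, with 5 and 4 of 6 higher. Scgb1a1, the club cell secretoglobin, was at 392, 1549.8, 664 and 2109.6 CPM, 1.98 and 1.67, with no UMI left in the Bdnf pair after subtraction of free RNA and 2.03 in the Hgf pair.

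The 20 surfactant and AT2 genes summed to 1252, 1942, 1660 and 2195 CPM, with 9 of 19 higher in the Bdnf pair and 3 higher and 4 lower of 16 in the Hgf pair, where 10.5% of all genes were called higher and 12.3% lower (10.8% higher in the Bdnf pair). The 6 ciliated markers summed to 20.9, 67.3, 31.3 and 53.9 CPM. The 10 fibroblast markers summed to 2645, 2818, 2941 and 3216 CPM, while the 5 genes used to gate fibroblasts summed to 36.9, 70.5, 23.2 and 20.2 CPM, a log2 ratio of 0.93 in the Bdnf pair and -0.20 in the Hgf pair. The list of 10 holds Npnt, also listed as a basement membrane gene, and Macf1. After subtraction of free RNA these kept 9031 and 5745 UMIs in Bdnf control and 10495 and 3952 in Bdnf iPCKO. The other fibroblast markers kept none there. Of the measured fibroblast markers 2 of 7 were higher and 1 lower in the Bdnf pair and 2 of 5 lower in the Hgf pair (medians 0.24 and -0.64). Of all genes 4.09 and 12.3% were called lower. The 8 mural markers summed to 11.4, 34.6, 28.3 and 61.3 CPM. The 9 immune markers summed to 107, 157, 198 and 76.0 CPM with 3, 2, 5 and 4 of them at 0, and the 5 erythroid markers to 51.3, 38.9, 18.9 and 115 CPM. In AT2-gated cells the same immune list summed to 26417, 18970, 37431 and 16631 CPM. The 5 genes used to gate immune cells summed to 0.319, 0.933, 0.687 and 2.48 CPM in AT1-like members. After subtraction of free RNA, 0 of the 9 endothelial, 1 of the 6 club and 2 of the 19 surfactant and AT2 genes kept UMIs in both libraries of the Bdnf pair. In the Hgf pair 6, 3 and 7 genes of these lists did, with medians of 3.07, 2.03 and 0.44. Endothelial and airway genes that were higher in the mutants are therefore given as measured in these barcodes, and the part of free RNA or of shared droplets was not tested. A doublet caller marked 1.35, 2.12, 0.413 and 0.223% of AT1-like members.

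Members also varied among themselves within a library. The variance of a gene over cells was set against the variance that counting alone gives at each cell's depth. The ratio is given as the range over the 4 libraries for AT1-like members. For the same relative variation this ratio is larger for a gene of higher level, so it does not rank genes by relative variation alone. It was 45.4 to 288 for Scgb1a1, 12.7 to 81.7 for Cbr2 and 6.30 to 55.0 for Scgb3a2, all genes of club cells. Malat1, a nuclear RNA, had 18.2 to 46.8. Of genes that belong to the cells themselves, Timp3, a protease inhibitor of the matrix, had 4.26 to 7.99, S100a6 had 5.20 to 6.32 and Ccn2 had 3.50 to 5.03. Fos and Egr1, named for being among the 15 genes of largest spread, had 2.82 to 6.95 and 3.33 to 3.80, and Egr1 kept no UMI in either Bdnf library after subtraction of free RNA.

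Depth set the limits of these values. The libraries held 169814433, 186701379, 73446420 and 69403166 UMIs in all, so the Bdnf pair resolved smaller differences. Cells of different libraries carried the same barcode in 1 to 3 members per library pair, out of a common list of 912673 barcodes.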

How the data were processed

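Lungs of 4 genotypes were captured with BD Rhapsody whole-transcriptome chemistry. The authors aligned the reads with STARsolo (STAR 2.7.10a) to GRCm39, split reads of several genes by expectation-maximisation and deposited unfiltered matrices, so values are estimated counts (expected UMI counts, some fractional). Sums were rounded to whole numbers for the ratios. Depth was 169814433, 186701379, 73446420 and 69403166 UMIs.

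Barcodes with at least 1500 UMIs (Bdnf libraries) or 700 UMIs (Hgf libraries) and at most 25% mitochondrial UMIs were kept and members were found by marker genes. No annotation of the cells was used. Doublets were scored with Scrublet (scanpy 1.11.5) and not removed. UMIs were summed over members per library, scaled to CPM and compared as log2 ratios with conditional exact Poisson intervals (Python 3.11.15, numpy 2.4.6, scipy 1.17.1, pandas 2.3.3). The scripts were tested on simulated data. The study's own fold changes from subsets of cells were not used. With 1 library a genotype no p-value was computed.

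Genes named are the 12 per direction and pair, and the 12 in both pairs, whose interval bound lies farthest from 0, the 20 leading AT1 genes, the 15 of largest spread, members of gene lists and the targeted genes. Predicted and mitochondrial genes were not named, and a few genes that met these rules are not reported here. The members and lists were chosen with earlier results of these data known, and the limit of 10000 CPM, like the Arntl and sex-linked values, after seeing the data. Of the listed symbols Bmal1, Atp5f1b, Atp5o and Atp5po had no match. Alternatives covered the fold, the count filter, thinning of cells, scaling, free RNA (barcodes of 10 to 100 UMIs) and the marker rule. The sources name more than one annotation release, and which was used is not settled.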

Additional observations from a re-analysis of the deposited data

Results flagged for a closer look

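Both immediate-early genes that follow were called in opposite directions in the pairs of AT1-like members, and the difference between the pairs was not tested. Jun, a subunit of the AP-1 factor, had a log2 ratio of mutant to control of 0.67 in the Bdnf pair and -0.72 in the Hgf pair. Atf3, a stress-induced factor, had 1.31 and -0.997 in the same pairs. After subtraction of free RNA Jun was at 0.10 in the Bdnf pair, under the 1.5-fold limit, and Atf3 kept 1 UMI in the control and 0 in the mutant. In the Hgf pair Atf3 was then at -2.32.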

How the results depend on the processing

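No paired analysis was possible because each genotype had 1 library. Without replicates, every value rests on 1 library per group. The log2 ratio of AT1 member shares was 0.48 in the Bdnf pair and 0.36 with cells thinned, and 0.30 in the Hgf pair, 0.16 with at least 4 markers and 0.54 with no excluded UMI allowed. For AT1-like members the Hgf value was 0.13, and 0.37 with no excluded UMI. At a 2-fold limit the calls over all members fell to 402 higher and 120 lower in the Bdnf pair and 573 and 604 in the Hgf pair, and those of AT1-like members to 557 and 88, and 397 and 434. Thinning gave 627 higher in the Bdnf pair and 504 and 573 in the Hgf pair over all members, and 631 higher, and 450 and 440, in AT1-like members, where fewer UMIs entered. Free RNA subtraction, with a share placed for each set of cells, gave 2402 higher and 942 lower over all members of the Bdnf pair. The shares used there were above those of both parts of the members, so they do not measure free RNA. In AT1-like members the subtraction gave 514 and 1229. Members with all 6 markers gave 850 higher and 1065 lower in the Hgf pair, and AT1-like members alone gave 1108 lower, against 1749 in all members. In AT1-like members with no count filter 2023 genes were higher in the Bdnf pair and 1465 in the Hgf pair (1722 and 1838 over all members), and without the limit on excluded genes 1555 in the Hgf pair. The cause of these shifts was not tested, other than where fewer UMIs entered. Of 850 values of 85 named results under these alternatives, 756 kept their direction and side of the limit, 93 lost the call and 1 reversed, Tm4sf1 in the Hgf pair, which was at 0.031 over all members.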
